A study of Mus musculus with 3 samples.

Results

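The Id genes (Id1, Id2, Id3 and Id4) and the E-protein genes (Tcf3, Tcf4 and Tcf12) were followed through the development of cortical neurons labelled by Sst. These 7 genes were taken by name from the 31053 genes in the count matrices, and all 7 had UMIs in each of the 3 libraries. Sst encodes somatostatin, a peptide made by one major class of cortical inhibitory neuron. Cells were sorted by GFP fluorescence, without DAPI stain, from the neocortex of mice carrying Sst-Cre and the RCEloxP reporter, in which Cre switches on GFP for good, so that cells that made Sst only for a time are labelled too. One 10x droplet library was made at E16.5 from 6 pooled animals, one at P1 from 3 pooled animals and one at P5 from 3 pooled animals. All animals carried the same driver and reporter, and no other genotype or treatment was compared.

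Id proteins are helix-loop-helix proteins that lack the basic region needed to touch DNA. They dimerize with E proteins and hold them off DNA. Free E proteins bind the E-box as homodimers or together with tissue-restricted basic helix-loop-helix partners such as the proneural factors. BMP signalling, acting through Smad proteins, is a well-known inducer of Id genes, and Id genes are known for keeping progenitors undifferentiated in many tissues. Among the E proteins, Tcf3 encodes E2A, Tcf12 encodes HEB, and Tcf4 encodes ITF2, which is not the Wnt effector TCF7L2 that is often given the same short name.

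The promoters of the 3 Id genes whose levels moved most are shown because E proteins and Smad proteins are known to act on DNA of these kinds. Each is 250 bases before to 50 bases after the transcription start in RefSeq on GRCm38.p6. Capitals mark the E-box, searched as CANNTG, and the Smad GC site, searched as GGCGCC. Both motifs were searched on both strands.
Id2: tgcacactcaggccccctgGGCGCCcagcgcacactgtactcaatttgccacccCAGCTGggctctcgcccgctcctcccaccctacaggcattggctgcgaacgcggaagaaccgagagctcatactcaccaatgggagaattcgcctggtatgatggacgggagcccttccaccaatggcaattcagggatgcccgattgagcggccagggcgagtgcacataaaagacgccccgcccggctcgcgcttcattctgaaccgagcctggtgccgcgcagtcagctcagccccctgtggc
Id3: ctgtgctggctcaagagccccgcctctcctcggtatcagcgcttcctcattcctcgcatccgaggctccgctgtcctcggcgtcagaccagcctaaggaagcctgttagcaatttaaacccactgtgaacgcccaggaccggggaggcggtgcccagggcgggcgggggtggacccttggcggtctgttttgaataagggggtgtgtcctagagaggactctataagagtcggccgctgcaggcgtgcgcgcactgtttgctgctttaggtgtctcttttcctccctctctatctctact
Id4: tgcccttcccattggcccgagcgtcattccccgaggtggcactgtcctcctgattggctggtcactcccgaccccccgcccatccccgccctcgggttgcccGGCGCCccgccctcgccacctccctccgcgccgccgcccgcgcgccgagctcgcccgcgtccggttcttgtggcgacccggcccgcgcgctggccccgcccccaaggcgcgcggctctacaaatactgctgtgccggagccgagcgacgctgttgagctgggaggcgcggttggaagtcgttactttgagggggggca
These windows lie at chr12:25096043-25096342 on the minus strand (Id2), chr4:136143572-136143871 on the plus strand (Id3) and chr13:48260866-48261165 on the plus strand (Id4). The Id2 window held 1 E-box and 1 GGCGCC, the Id3 window held 0 of each, and the Id4 window held 0 E-boxes and 1 GGCGCC. An E-box was in 72.3% of the 32851 RefSeq promoter windows of the same length, and GGCGCC was in 11.9% of them. Of the 7 genes, 5 had a window in the RefSeq table (Id2, Id3, Id4, Tcf3 and Tcf12). The Tcf3 window held 1 E-box and the windows at the 3 Tcf12 starts held 1, 2 and 1, with 0 GGCGCC in all 4 windows.

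Cells with more than 700 genes and under 10% mitochondrial UMIs were kept. In order of age, this left 3952 of 4478, 2501 of 4440 and 2980 of 3406 cells. Median UMIs in kept cells were 5577, 3293 and 3935.5, so the P1 library was the shallowest, and it also lost the most cells to the filter. The labelled identity held in most cells: Lhx6, a transcription factor of medial ganglionic eminence neurons, had a UMI in 84.0%, 78.6% and 76.0% of kept cells, and Sst in 74.8%, 73.4% and 73.3%. Cells with UMIs of at least 2 excitatory-neuron markers and none of Lhx6, Gad1 or Gad2 numbered 34, 27 and 20. Levels are CPM, the UMIs of a gene summed over a group of cells and scaled to 1000000 UMIs of that group. Intervals are exact 95% intervals that cover counting error only. With 1 library per stage there is no replicate, so no difference was tested, and a value set against that of another stage compares 1 library with another, not ages as such. A gene counts as past the fold at a ratio of 1.5 or more either way with at least 50 UMIs over both groups.

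Across the stages, Id4 was higher in each later library, while Id3 was lower in each later library and nearly gone at P5. Id4, an Id gene also known from astrocytes and neural progenitors, was at 19.4 CPM (17.7 to 21.2) at E16.5, 37.0 CPM (33.5 to 40.8) at P1 and 75.1 CPM (70.5 to 80.0) at P5. Id3 was at 33.2 CPM (31.0 to 35.6), 19.7 CPM (17.2 to 22.5) and 1.01 CPM (0.537 to 1.72), the last from 13 UMIs. The Id4 and Id3 intervals of the 3 libraries did not overlap. Id2, an Id gene found in many neurons, was at 53.1 CPM at E16.5, 58.1 CPM at P1 and 21.6 CPM at P5. Id1 was the most sparsely counted, with 140, 60 and 36 UMIs, at 5.68, 5.47 and 2.79 CPM. In all kept cells both genes were thus close together in the first pair of libraries and lower in the P5 library.

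All 3 E-protein genes were lower at P5 than at P1. Tcf4 was at 2878 CPM at E16.5, 3439.9 CPM at P1 and 1680.5 CPM at P5. Tcf12 was at 153 CPM, 173 CPM and 53.9 CPM. Tcf3 was at 27.5 CPM, 24.0 CPM and 10.4 CPM. The P1 to P5 ratio was 2.05 (2.01 to 2.08) for Tcf4, 3.22 (2.95 to 3.51) for Tcf12 and 2.31 (1.87 to 2.86) for Tcf3, each given as the level at P1 over that at P5. From E16.5 to P1 none of the 3 was past the fold, with log2 ratios of 0.26 for Tcf4, 0.18 for Tcf12 and -0.20 for Tcf3.

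From E16.5 to P1, 1 of 7 members was higher past the fold (Id4, 1.91-fold, 1.67 to 2.18) and 1 was lower (Id3, 1.69-fold, 1.45 to 1.97). Of all 12266 genes tested, 27.4% were higher and 12.8% lower, so these counts were near the background. From P1 to P5, 1 of 7 was higher (Id4, 2.03-fold, 1.80 to 2.28) and 6 of 7 were lower, against 19.6% of all genes higher and 26.4% lower. Id3 had the largest ratio of the 6, at 19.5-fold (11.2 to 37.3). The comparisons share the P1 library. The median log2 ratio of all genes was 0.19 at the first step and -0.12 at the second, against 0.13 and -1.21 for the members. Taken relative to those medians, 19.9% of genes were higher and 19.4% lower at the first step and 23.5% and 21.4% at the second, with the members' counts at 1 and 1, then 1 and 6.

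**Figure D1:**
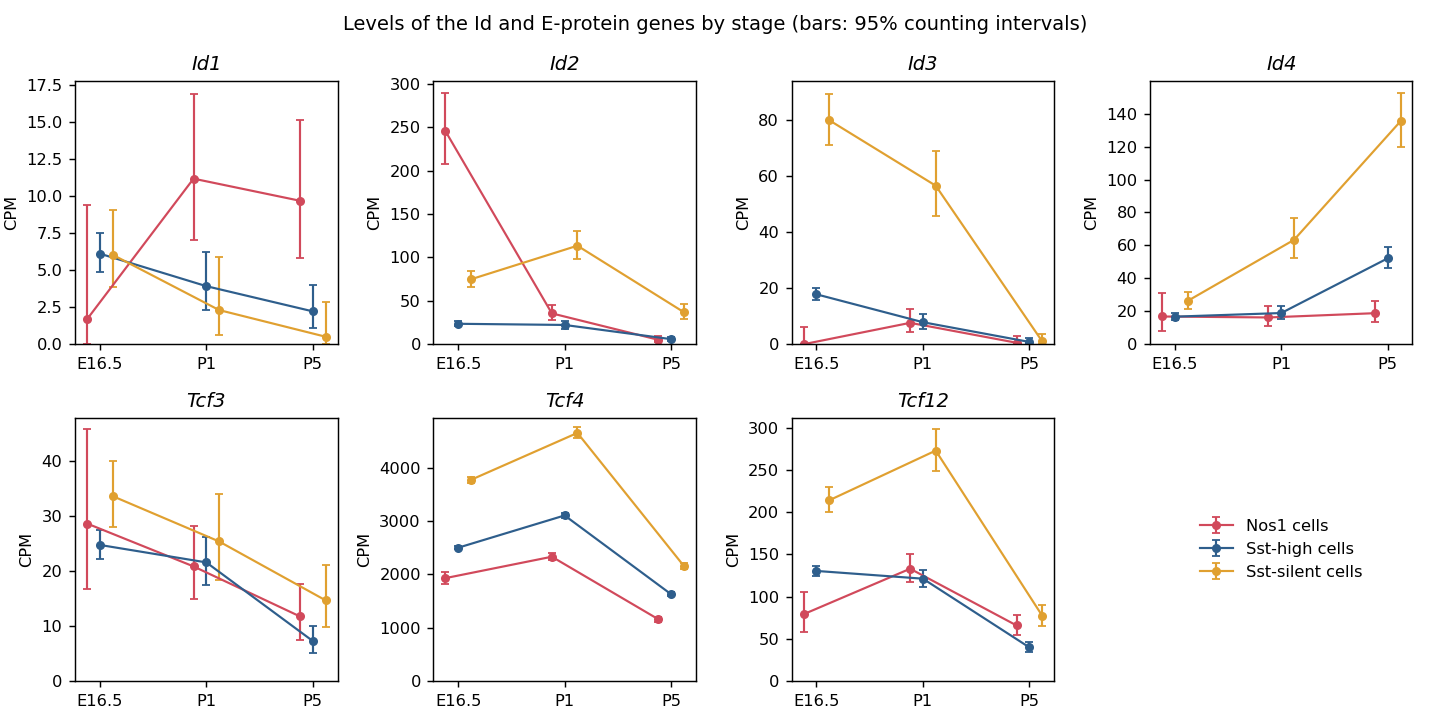
Levels (CPM, vertical axes) of the 7 genes in Nos1, Sst-high and Sst-silent cells of the E16.5, P1 and P5 libraries, with exact 95% counting intervals as bars and lines that only join libraries. Id4 in Sst-silent cells goes from 26.2 to 135 CPM while Id3 goes from 79.8 to 1.01 CPM, and the high Id2 point of Nos1 cells at E16.5 includes cells with excitatory markers.

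The cells behind these levels were not the same mix at each stage. In cells with Lhx6, without Nos1 and without markers of another type (3263, 1596 and 1872 cells, a group chosen after values were seen), Id4 was at 10.1, 41.5 and 82.0 CPM. That is 4.11-fold (3.45 to 4.91) higher at P1 than at E16.5 and 1.98-fold (1.74 to 2.26) higher at P5 than at P1, so the first step was larger in these cells than in all kept cells. Cells with no Lhx6, Nos1 or other-type markers at E16.5 (592 cells) held 240 of the library's 478 Id4 UMIs, at 95.02 CPM, 9.43-fold (7.81 to 11.4) above the Lhx6 cells. Median UMIs were 3845 in those 592 cells and 5803 in the Lhx6 cells. Meis2, which marks a separate interneuron population, was at 309 CPM in those 592 cells and 4.97 CPM in the Lhx6 cells. All 4 markers of that population were detected in both groups, summing to 443 and 40.3 CPM, and 41 of the 592 cells had UMIs of at least 2 of them. Their part in the Id4 level was not tested.

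In the same Lhx6 cells Id2 was at 36.8 CPM, 56.4 CPM and 13.0 CPM, which put it past the fold at both steps: 1.53-fold (1.36 to 1.72) higher, then 4.34-fold lower. Id1 was also past the fold at the first step in these cells, at 6.39 CPM and then 3.54 CPM, 1.80-fold lower. Id3 was at 35.2 CPM, 22.8 CPM and 0.649 CPM, with 6 UMIs left at P5. Tcf12 was at 154, 175 and 49.0 CPM and Tcf4 at 2928, 3673 and 1787 CPM, so the E-protein genes moved as they did in all kept cells. In the 531 cells with no Lhx6, Nos1 or other-type markers at P5, Id2 was at 81.5 CPM, 6.28-fold (4.86 to 8.13) above the 13.0 CPM of the Lhx6 cells. Median UMIs were 2437 in those 531 cells and 4750 in the Lhx6 cells, so the lack of Lhx6 UMIs partly follows depth. The excitatory markers summed to 19.3 CPM against 2.92 CPM, with 5 of 6 detected in each group, and their part in the Id2 level was not tested.

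Sst-silent cells, which had Lhx6 but 0 Sst UMIs, held more of most Id genes and of Tcf12 than Sst-high cells, which had at least 5 Sst UMIs and no Nos1. There were 776, 491 and 559 Sst-silent cells and 1920, 757 and 896 Sst-high cells. They differed in depth, with median UMIs of 4979.5, 3117 and 3316 against 6457, 4557 and 5542.5, and cells with 0 Sst UMIs are partly chosen by low depth. Of the Sst-silent cells, 2, 26 and 14 also held Nos1, and 0 were cells with other-type markers. The excitatory markers summed to 15.2, 25.9 and 9.09 CPM in Sst-silent cells, with 5 of 6 detected each time, against 7.36, 6.31 and 1.81 CPM in Sst-high cells, and their part in the differences was not tested.

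Id2 was at 74.8, 114 and 36.9 CPM in Sst-silent cells and at 23.5, 22.2 and 5.84 CPM in Sst-high cells. The ratios were 3.18 (2.71 to 3.73), 5.11 (4.01 to 6.56) and 6.31 (4.05 to 10.1) at E16.5, P1 and P5. Id2 was therefore higher in the Sst-silent cells of all 3 libraries. Id3 was at 79.8 and 56.5 CPM in Sst-silent cells against 17.8 and 7.83 CPM in Sst-high cells, 4.49-fold (3.79 to 5.32) at E16.5 and 7.21-fold (4.87 to 10.9) at P1. At P5 Id3 had 2 and 4 UMIs in the groups, and no difference was detectable at this depth.

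Id4 was at 26.2, 63.4 and 135 CPM in Sst-silent cells against 16.7, 18.9 and 52.2 CPM in Sst-high cells, with ratios of 1.57, 3.35 and 2.60. Both groups had their highest Id4 level at P5. Id1 did not show this direction, at 6.04 against 6.11 CPM at E16.5, and had 4 and 1 UMIs in Sst-silent cells at P1 and P5. Tcf12 was 1.64-fold (1.51 to 1.78), 2.25-fold (1.99 to 2.55) and 1.95-fold (1.57 to 2.42) higher in Sst-silent cells, at 214, 273 and 77.3 CPM there. Tcf4 lay at the fold itself, with ratios of 1.51, 1.499 and 1.33, of which only the first reached 1.5. Tcf3 ratios were 1.36, 1.18 and 2.02, the last from 29 and 36 UMIs.

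In counts, 5 of 7, 4 of 6 and 4 of 5 tested members were higher past the fold in the Sst-silent cells of E16.5, P1 and P5, and 0 were lower. Of all genes tested, 5.26%, 6.64% and 7.81% were higher and 10.8%, 13% and 8.39% were lower. The 5 at E16.5 fell to 3 in cells with more than 1000 genes and under 5% mitochondrial UMIs, and to 2 without the 5% of cells with the most UMIs or at a fold of 2. The 4 at P1 fell to 2 under the same stricter filter. The members that failed the 50-UMI minimum were Id1 at P1, and Id1 and Id3 at P5.

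The study used Erbb4, a neuregulin receptor, and Reln, which encodes the secreted glycoprotein reelin, as marks of non-Martinotti and Martinotti interneurons, the latter being the cells that send axons to the top cortical layer. Among Lhx6 cells without Nos1, Erbb4 cells (1529, 647 and 491 cells with Erbb4 and no Reln UMI) were set against Reln cells (389, 314 and 812 cells with Reln and no Erbb4 UMI). Median UMIs were 5585, 3361 and 4137 in Erbb4 cells and 6038, 5095 and 5441.5 in Reln cells. A gate on 0 UMIs partly chooses by depth. The Erbb4 and Sst-silent groups share cells. At E16.5 Sst had a UMI in 67.8% of Erbb4 cells, and the other Erbb4 cells met the Sst-silent gate too. This and the Sst-silent comparison are thus not separate evidence. Id2 had the largest difference, at 58.2 against 4.69 CPM at E16.5, 93.6 against 17.8 CPM at P1 and 34.4 against 1.98 CPM at P5. The ratios were 12.4 (7.05 to 24.2), 5.27 (3.69 to 7.74) and 17.4 (8.70 to 39.6). Id2 was thus higher in Erbb4 cells in each library. Id3 was 4.54-fold (3.16 to 6.75) higher at E16.5 and 3.24-fold (2.08 to 5.23) higher at P1, and had 3 and 1 UMIs at P5. Tcf12 was 1.49-fold, 2.47-fold and 2.12-fold higher, the first just under the fold.

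Id4 changed sides between the stages. It was at 15.0 CPM in Erbb4 cells against 7.42 CPM in Reln cells at E16.5, 41.1 against 49.2 CPM at P1 and 54.6 against 107 CPM at P5. The Erbb4 over Reln ratio was 2.03 (1.25 to 3.46), then 0.836 (0.630 to 1.11), then 0.510 (0.414 to 0.624). The Reln level was 107 CPM at P5 from 488 UMIs and 7.42 CPM at E16.5 from 19 UMIs. Id1 was lower in Erbb4 cells at E16.5, at 4.31 against 9.77 CPM, 2.26-fold (1.32 to 3.81), with 41 and 25 UMIs. Tcf4 ratios were 1.22, 1.29 and 1.10, and Tcf3 ratios 1.71, 1.11 and 1.09.

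At E16.5, 4 of 7 members were higher past the fold in Erbb4 cells (Id2, Id3, Id4 and Tcf3) and 1 was lower (Id1), against 5.42% and 3.74% of all genes. After thinning each cell to 2000 UMIs, 3 were past the fold (Id2, Id3 and Tcf12), with Id4 and Tcf3 at log2 0.45 and 0.43, under it. At P1, 3 of 6 were higher (Id2, Id3 and Tcf12) and 0 lower, against 7.31% and 6.24%. At P5, 2 of 5 were higher (Id2 and Tcf12) and 1 was lower (Id4), against 8.08% and 8.16%. The study's own list of genes of non-Martinotti neurons, drawn from these same libraries, holds Tcf4, Id2, Id3 and Tcf12, so the direction of those genes here is not independent evidence.

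**Figure D2:**
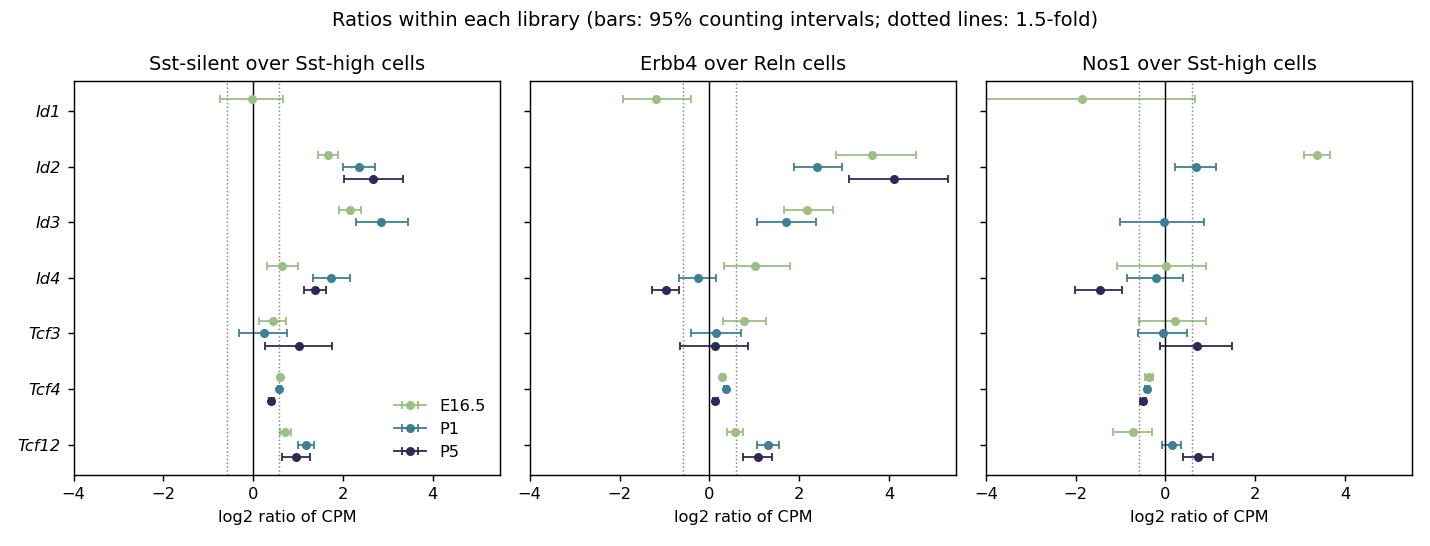
log2 ratios of CPM (horizontal axes) of the members within each library for Sst-silent over Sst-high, Erbb4 over Reln and Nos1 over Sst-high cells, with exact 95% counting intervals as bars and dotted lines at a 1.5-fold ratio. The Sst-silent and Erbb4 groups share cells. Only members with at least 50 UMIs are drawn, Id3 in Nos1 cells at E16.5 (0 UMIs) is left out and the Id1 bar there runs off the axis; Id2 and Tcf12 lie to the right of 0 in the first and second panels at all stages, and Id4 crosses 0 in the second.

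Nos1 encodes neuronal nitric oxide synthase, which marks the Sst neurons with long-range axons. Cells with at least 1 Nos1 UMI numbered 67, 434 and 547 in order of age. Nos1 had a UMI in 32.4%, 33.3% and 10.0% of the excitatory-marker cells, against 1.70%, 17.4% and 18.4% of all kept cells, and 11, 9 and 2 of the Nos1 cells were excitatory-marker cells. The part of free RNA in cells with a single Nos1 UMI was not tested. Id3 had 0 UMIs in the Nos1 cells of E16.5 against 256 UMIs (17.8 CPM) in Sst-high cells. With the 0 set at a floor of 3 UMIs over the group this was 3.52-fold lower, and the exact interval began at 2.84-fold lower. The 49 Nos1 cells with Lhx6 also had 0 Id3 UMIs. There the same floor gave 2.36-fold lower, with an interval of the ratio that reached up to 0.525. At P1 Id3 was at 7.62 against 7.83 CPM, a ratio of 0.972 (0.494 to 1.82). Id4 was at 16.8 against 16.7 CPM at E16.5, 16.2 against 18.9 CPM at P1 and 18.8 against 52.2 CPM at P5. Its level in Nos1 cells thus stayed between 16.2 and 18.8 CPM, and the 2.77-fold (1.96 to 4.02) lower value at P5 came with the higher level in Sst-high cells.

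Id2 in Nos1 cells at E16.5 depended on which cells were counted. It was at 246 CPM (207 to 289) against 23.5 CPM in Sst-high cells, 10.4-fold (8.54 to 12.7). In the 49 Nos1 cells with Lhx6 it was at 40.2 CPM, from 16 UMIs, and in the 18 without Lhx6 at 664 CPM, from 130 UMIs. Of those 18 cells, 13 had UMIs of at least 2 excitatory markers, and 11 of these also lacked Gad1 and Gad2. The 6 excitatory markers, all detected in both groups, summed to 604 CPM in all Nos1 cells against 7.36 CPM in Sst-high cells. Set against Sst-high cells, the Nos1 cells with Lhx6 had a ratio of 1.71 (0.964 to 2.81). At P1 the ratio was 1.60 (1.16 to 2.19), at 35.5 against 22.2 CPM, and it turned over in Nos1 cells with Lhx6, at 14.4 against 22.2 CPM, a ratio of 0.648 (0.401 to 1.01). At P5 Id2 was at 5.09 and 5.84 CPM, from 10 and 29 UMIs.

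Excitatory-marker cells held Id2 at 731 CPM at E16.5, 581 CPM at P1 and 207 CPM at P5. The 34 cells of this kind at E16.5 were 0.860% of kept cells and held 21.3% of the library's Id2 UMIs, and the share was 14.6% at P1 and 6.47% at P5. Id1 and Id3 had 0 UMIs in them at all 3 stages. In these few cells this allows a share with a UMI of up to 10.3%, 12.8% and 16.8%, which limits detection and not expression.

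Among the E-protein genes, Tcf4 was lower in Nos1 than in Sst-high cells of every library, under the fold each time, at 1929 against 2499 CPM, 2331 against 3105 CPM and 1157 against 1626 CPM. The log2 ratios were -0.37, -0.41 and -0.49. Tcf12 was at 79.1 against 130 CPM at E16.5, 133 against 121 CPM at P1 and 65.7 against 39.7 CPM at P5, so it was below the Sst-high level first and above it last. Tcf3 was at 28.6 against 24.7 CPM, 20.8 against 21.5 CPM and 11.7 against 7.25 CPM. Id1 had higher levels in Nos1 cells at P1 and P5, at 11.2 against 3.92 CPM and 9.68 against 2.22 CPM, from 22 against 18 and 19 against 11 UMIs, which is under the 50-UMI minimum.

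In counts, 1 of 7 members was higher (Id2) and 3 lower (Id1 with 1 UMI, Id3 and Tcf12) in Nos1 cells at E16.5, against 10.3% and 13.2% of all genes. The Id1 ratio of 0.275 had an interval of 0.0069 to 1.58. Its direction turned with at least 3 Nos1 UMIs (log2 1.45), and it was near even under the stricter quality filter (log2 0.0072). At P1, 1 of 6 was higher (Id2) and 0 lower, against 5.61% and 8.12%, and without cells that held other-type markers 0 were past the fold. At P5, 2 of 4 were higher (Tcf3 and Tcf12) and 1 was lower (Id4), against 7.21% and 12.7%. The Tcf3 ratio was 1.61 with an interval that spans 1 (0.914 to 2.80), and it was 1.499, under the fold, in Nos1 cells with Lhx6. At a fold of 2, Id4 alone remained.

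Within the Nos1 cells, those with Dach1 and no Lypd1 UMI were set against those with Lypd1 and no Dach1 UMI. Dach1 is a transcription factor gene the study links to one group of the Nos1 cells. These gates were also chosen after values were seen. Median UMIs were 3955 in Dach1 cells against 5059 in Lypd1 cells at P1, and 2667 against 3370 at P5. Tcf4 was at 1204 CPM in 98 Dach1 cells against 2258 CPM in 55 Lypd1 cells at P1, 1.87-fold lower in the Dach1 cells. At P5 it was at 377 CPM in 27 Dach1 cells against 1143 CPM in 221 Lypd1 cells. Tcf4 was thus lower in the Dach1 cells of these libraries, and E16.5 was not compared because it had 1 Lypd1 cell. The other members had at most 10 UMIs in either group, apart from Tcf12 with 36 and 43 UMIs at P1 and 52 in the Lypd1 cells at P5, and Id4 with 11 there.

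The Id transcripts set against the E-protein transcripts gave a ratio that compares groups of cells. Tcf4 made up 94.1%, 94.6% and 96.3% of the E-protein UMIs, so the ratio mostly reads Id genes against Tcf4. In all kept cells there were 3.64 (3.51 to 3.78), 3.31 (3.13 to 3.49) and 5.76 (5.44 to 6.09) Id UMIs per 100 E-protein UMIs in order of age. In Lhx6 cells the ratios were 2.84, 3.21 and 5.26. The P5 library had the highest value in both.

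Within each library the ratio was higher in Sst-silent cells, at 4.65, 4.76 and 7.73, than in Sst-high cells, at 2.42, 1.63 and 3.65. Reln cells went from 1.24 (0.995 to 1.54) at E16.5 to 2.51 at P1 and 6.21 (5.67 to 6.80) at P5. Erbb4 cells stayed between 3.93 and 4.59, so they were above the Reln cells at E16.5 and P1 and below them at P5. Nos1 cells had 13.0, 2.84 and 2.77, the first with the excitatory-marker cells described above.

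The Id gene behind these UMIs differed by stage. Of all Id UMIs, Id4 gave 17.4%, then 30.8%, then 74.7%. In Reln cells Id4 gave 21.8%, 58.4% and 96.8%, and in Erbb4 cells 11.3%, 23.0% and 59.8%. Id2 gave 37.7% in Erbb4 cells at P5 and 1.79% in Reln cells.

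**Figure D3:**
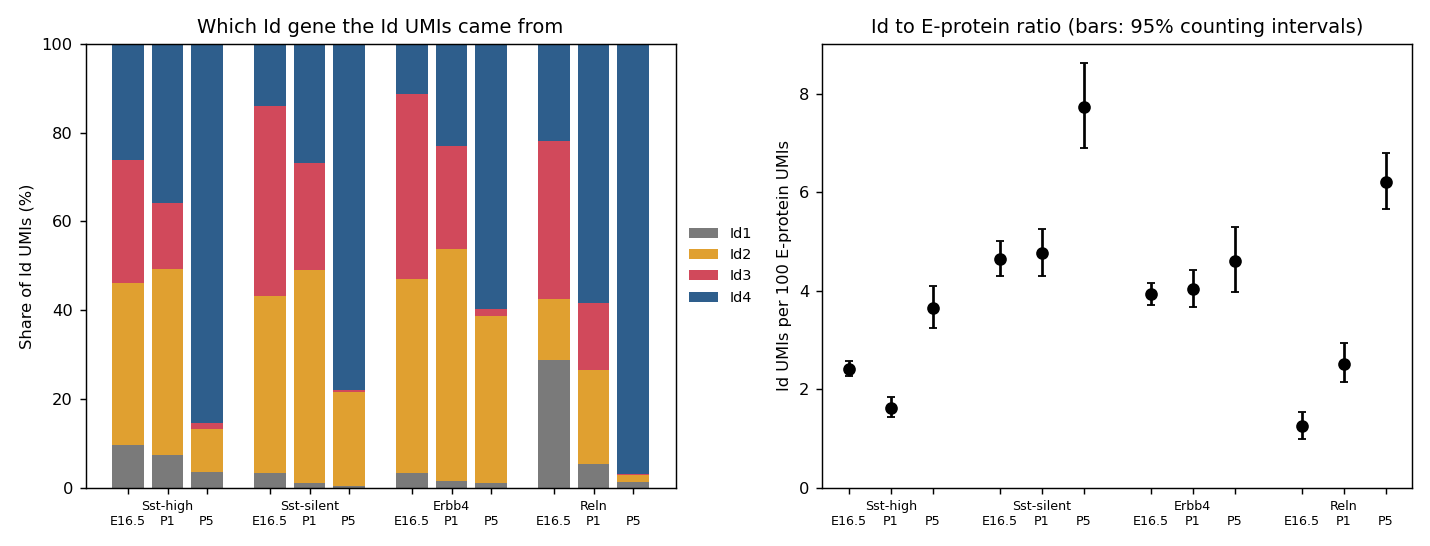
Left, the share of Id UMIs (%) that came from Id1, Id2, Id3 and Id4 in 4 groups of cells at E16.5, P1 and P5. Right, Id UMIs per 100 E-protein UMIs in the same groups with exact 95% counting intervals as bars. Id4 takes 59.8% to 96.8% of the Id UMIs in every group at P5, and the Reln ratio goes from 1.24 to 6.21 while the Erbb4 ratio stays between 3.93 and 4.59.

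Single cells rarely held more than one Id gene. Each kept cell with at least 2000 UMIs was thinned to 2000, which left out 337, 673 and 537 shallower cells. Of the rest, 610 of 3615, 354 of 1828 and 390 of 2443 cells had any Id UMI, and 73, 30 and 2 had UMIs of 2 or more Id genes. Each Id gene was seen in few thinned cells, so these counts limit detection and not what a cell held. The share with Id4 was 2.74%, 6.95% and 12.1%, and 5.64%, 9.36% and 19.2% before thinning. The share with Id3 was 6.83%, 5.20% and 0.205%, and 11.4%, 6.84% and 0.336% before thinning. Both orders were those of the CPM. Among thinned cells with Lhx6 at E16.5, 41 held Id2 and Id3, where the product of their shares gave 15.6. Id2 with Id4 gave 14 against 4.21, and Id3 with Id4 gave 2 against 4.23. Id1 gave 1 against 2.74 with Id2, 3 against 2.75 with Id3 and 2 against 0.743 with Id4.

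Tcf4 was in 97.9%, 98.4% and 93.1% of thinned cells and Tcf12 in 28.4%, 31.0% and 11.1%. The spread among cells differed by gene: the variance of thinned UMIs over their mean was 1.97, 2.55 and 3.89 for Id2, 1.74, 1.69 and 1.44 for Id4, and 1.02, 1.03 and 1.02 for Tcf3, where 1 is the value for counting alone. In the E16.5 library one cell held 44 Id2 UMIs, and the 198 cells with the most Id2 UMIs held 71.4% of them. Such a share is high for any gene seen in few cells. The 34 excitatory-marker cells held 21.3% of these Id2 UMIs, so the Id2 spread includes another cell type. Tcf3 UMIs were the most evenly spread of these 3.

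Among thinned cells with Lhx6, whether or not they held Nos1, cells with Id2 were set against cells without it. At E16.5, 41 of 221 cells with Id2 (18.6%, 13.7 to 24.3) held Id3, against 6.18% of 2927 without. At P1 the shares were 10.9% (5.77 to 18.3) of 110 cells against 5.01% (3.97 to 6.23), with intervals that overlap, and at P5 0 of 50 cells with Id2 held Id3, against 3 of 1943. For Tcf12 they were 40.7% against 27.1% at E16.5, 56.4% against 28.6% at P1 and 14.0% against 10.8% at P5. The Tcf12 intervals were apart at E16.5 and P1 and overlapped at P5.

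Id4 and Id2 were seen together at E16.5 and apart at P5. Of the cells with Id2, 6.33% (3.51 to 10.4) held Id4 at E16.5 against 1.57% of those without. At P1 the shares were 6.36% and 7.32%. At P5, 1 of 50 cells with Id2 held Id4 (2.00%, 0.0506 to 10.6) against 12.1% of 1943 without. Levels were also taken unthinned, in cells with Lhx6 and without Nos1. There, cells with Id2 at P5 held Id4 at 32.3 CPM and cells without at 84.2 CPM, a ratio of 0.384 (0.198 to 0.675). At E16.5 the same levels were 28.9 and 7.52 CPM. Cells are not replicates, and these shares describe 1 library each.

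**Figure D4:**
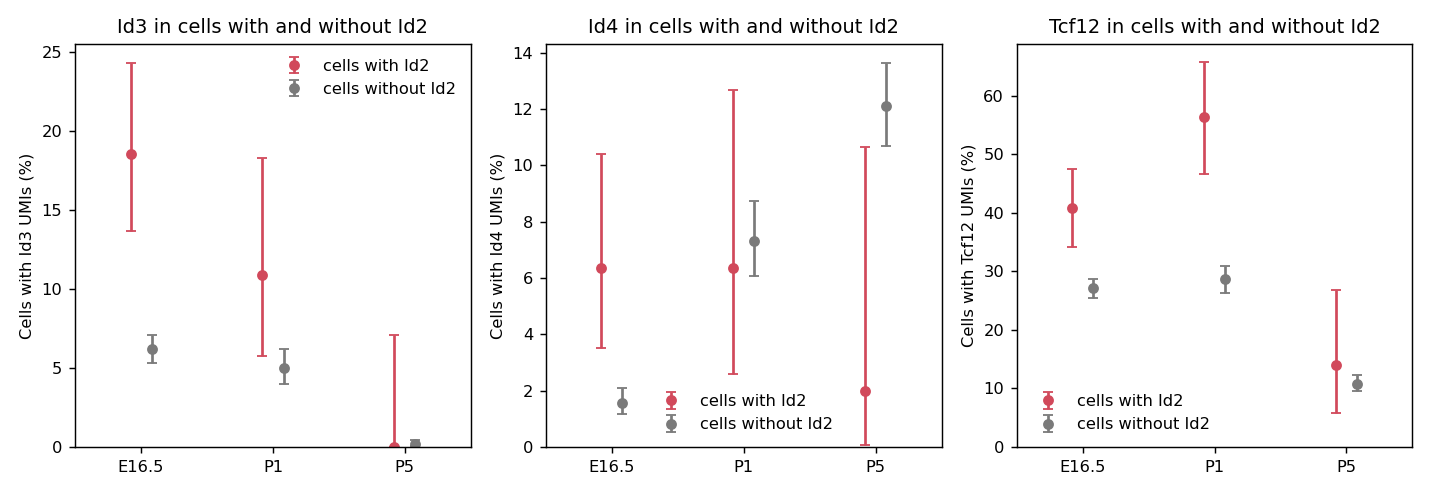
Share (%) of cells that held a UMI of Id3, Id4 or Tcf12 among cells with and without Id2 at E16.5, P1 and P5. All had Lhx6, with or without Nos1, and were thinned to 2000 UMIs, and bars are exact 95% intervals. Tcf12 is more frequent in cells with Id2 at E16.5 and P1, Id3 at E16.5 with overlapping bars at P1, and Id4 is at 2.00% in cells with Id2 and 12.1% in cells without at P5.

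A pair of smaller groups of Lhx6 cells without Nos1 was chosen after values were seen, so the Id levels in them only describe that choice. Cells with Gstm7 (319 at E16.5 and 26 at P1) held Id3 at 73.8 against 30.3 CPM at E16.5, 2.43-fold (2.04 to 2.89), and at 61.8 against 21.9 CPM at P1, 2.82-fold (1.12 to 5.93), compared with cells without it. Id2 was at 62.5 against 33.4 CPM in the same E16.5 cells. At P1 Id2 was 2.42-fold and Id4 2.37-fold higher in cells with Gstm7, from 15 and 11 UMIs there. The Id4 ratio at E16.5 was 0.805 (0.474 to 1.29). The 13 cells with both Pde3a and Sorcs1 at E16.5 held Id2 at 261 CPM against 30.0 CPM in cells with neither, from 20 UMIs. At P1 only 4 cells had both, with 1 Id2 UMI and a ratio of 1.39 (0.0351 to 7.79).

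Cells with both Cxcr4 and Igfbpl1, genes of migrating immature interneurons, were also compared at E16.5 with cells that had neither (749 and 1135 cells). Id3 was at 68.1 against 13.8 CPM, 4.92-fold (3.95 to 6.17), and Id1 at 9.36 against 1.99 CPM, 4.69-fold (2.59 to 8.93). Id4 went the other way, at 6.09 against 15.95 CPM, and Id2 was at 33.5 against 43.6 CPM. Tcf12 was at 178 against 130 CPM and Tcf4 at 3418 against 2604 CPM. Id3 and Id1 were thus on one side of this comparison, with Id4 on the other. At P1, 83 cells had both genes, and Id1 was at 12.1 against 2.40 CPM there, from 5 and 12 UMIs. The split between Id3 and Id4 was not seen at P1, with ratios of 1.59 (0.794 to 2.92) for Id3 and 1.04 (0.605 to 1.69) for Id4.

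Genes that work with the members were read from 3 lists. Of 30 class II and repressor basic helix-loop-helix genes, 9 could be tested between stages: 3 were higher and 1 lower from E16.5 to P1, where 27.4% of all genes were higher and 12.8% lower, and 0 were higher and 5 lower from P1 to P5, where the shares were 19.6% and 26.4%. Their median log2 ratio at that second step was -0.75, against -0.12 for all genes. Of 12 E-protein cofactors, 1 was higher and 1 lower of 12 tested at the first step, and 1 was higher and 7 lower of 11 tested at the second, with a median log2 ratio of -0.87. Of 26 genes of the BMP and Smad route, 6 were higher and 2 lower of 16 tested, then 1 higher and 7 lower of 16, with a second median of -0.57. The first counts of this list were near the shares of all genes.

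Within libraries, the counts below stand against the shares of all genes given above for the same comparisons. In Sst-silent over Sst-high cells the cofactors had 2 higher and 2, 1 and 1 lower of 11, 10 and 10 tested, and the BMP and Smad route had 2, 2 and 4 higher and 2, 2 and 1 lower of 14, 12 and 13. In Erbb4 over Reln cells the cofactors had 1, 1 and 3 higher of 10 tested each time and 0, 0 and 1 lower, and the BMP and Smad route had 1, 1 and 3 higher and 1, 0 and 1 lower of 13, 10 and 11. In Nos1 over Sst-high cells the basic helix-loop-helix list had 4, 3 and 1 higher and 1, 0 and 1 lower of 7, 5 and 3 tested, with median log2 ratios of 1.43, 1.93 and -0.16, and it holds the excitatory-neuron genes Neurod2 and Neurod6. The cofactors had 3, 1 and 2 higher and 2, 1 and 3 lower of 11, 10 and 11 there, and the BMP and Smad route 4, 1 and 1 higher and 2, 1 and 2 lower of 13, 12 and 12.

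The genes of these lists that were past the fold one way throughout a comparison were few. Acvr2b, an activin and BMP receptor, was at 89.7, 48.9 and 25.5 CPM over the stages, lower at each step. Grem1, a secreted BMP antagonist, was at 2.72, 4.47 and 12.6 CPM, higher at each step. Both belong to the BMP and Smad route.

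In Nos1 cells Cbfa2t3, a corepressor that binds E proteins, was lower than in Sst-high cells, at 103 against 259 CPM at E16.5, 130 against 265 CPM at P1 and 83.5 against 142 CPM at P5. Rgma, a BMP coreceptor, was higher in Nos1 cells, at 48.8 against 12.6 CPM, 130 against 16.3 CPM and 95.3 against 5.24 CPM, with ratios of 3.86, 7.96 and 18.2. These Nos1 groups held 11, 9 and 2 excitatory-marker cells, whose part in the Cbfa2t3 and Rgma levels was not tested. Ldb2, an adaptor of LIM-domain factor complexes, was higher in Erbb4 than in Reln cells, at 14.2 against 7.03 CPM, 23.8 against 13.7 CPM and 38.1 against 3.51 CPM. The Ldb2 difference at P5 was 10.8-fold (6.30 to 19.8).

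Finally, the genes most like each member were ranked by Pearson's r of log2(CPM + 1) over 9 profiles, the Nos1, Sst-high and Sst-silent cells of the 3 libraries, among 7215 genes. The profiles share 3 libraries, so r is a description. The genes most like Id3 included Pde4dip (0.99) and Rictor (0.98), and Id4 was most like Dzip1l (0.97), Nacc2 (0.95) and Zmiz2 (0.95). Id2 was most like Reep3, Ttc28 and Ppp4r3b (each 0.94) and Id1 most like Ctnna2 (0.91), Zcchc12 (0.88) and R3hdm2 (0.82). Among the E-protein genes, the genes most like Tcf3 included Fryl (0.98) and Lsg1 (0.98), Tcf4 was most like Gmip (0.97), Gle1 (0.97) and Sestd1 (0.97), and Tcf12 most like Dhx30 (0.99), Herc4 (0.98) and Prpf38b (0.98). Between members, r was 0.90 for Id3 with Tcf12, 0.89 for Tcf12 with Tcf4, -0.75 for Id1 with Id4 and 0.01 for Id4 with Id2.

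In the GRCm38 annotation Id1 spans chr2:152736251-152737410, Id2 chr12:25093799-25097140, Id3 chr4:136143497-136145755, Id4 chr13:48261228-48266026, Tcf3 chr10:80409514-80433647, Tcf12 chr9:71842688-72111871 and Tcf4 chr18:69343356-69689079. Id2, Tcf3 and Tcf12 are on the minus strand. Id4 overlaps the antisense genes A330033J07Rik and Gm49291, which had 1 and 4 UMIs in the kept cells.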

How the data were processed

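The authors deposited one Cell Ranger matrix of UMI counts per library (whole numbers, not normalized). Per the file headers, Cell Ranger was version 3.1.0 for E16.5 and P5 and 3.0.2 for P1. The submitters' processing notes also name STAR, Seurat and the GRCm38 build, and the annotation release is not given in the sources used here. Library totals were 25638779, 15654107 and 13429055 UMIs in 4478, 4440 and 3406 cells, of which 9433 of 12324 were kept. In all, 10 barcodes occurred in more than one library.

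The members and lists were chosen with earlier results of these data known. Groups were gated by UMIs of named genes. The groups by Lhx6 alone, Gstm7, Pde3a with Sorcs1, Cxcr4 with Igfbpl1, Dach1 and Lypd1 were chosen after values were seen. Levels have exact Poisson intervals, shares Clopper-Pearson intervals, and ratios exact conditional binomial intervals, all at 95%. Groups at 0 were set at a floor of 3 UMIs for the ratio, and the limit of such a ratio is that of its exact interval. With 1 library per stage no test was run, and pooled animals could not be told apart. No doublet caller was run. The cells with the most UMIs were left out as an alternative. The named list genes are those past the fold one way in all libraries of a comparison, at most 5 per list. Like genes are the 3 of highest r with a mean of at least 20 CPM, some of which are not reported here. Scripts used Python 3.11.15, numpy 2.4.6, scipy 1.17.1, pandas 2.3.3 and matplotlib 3.10.9, and were tested on simulated counts.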

Additional observations from a re-analysis of the deposited data

Results flagged for a closer look

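The Tcf12 ratio of Nos1 over Sst-high cells lay on opposite sides at E16.5 and P5, at log2 -0.72 and 0.73. The Id4 ratio of Erbb4 over Reln cells did the same, at log2 1.02 at E16.5 and -0.97 at P5. Each was past the fold in opposite directions in these libraries, with 1 library per stage, and the difference between stages was not tested. After thinning each cell to 2000 UMIs, the Id4 value at E16.5 was log2 0.45, under the fold.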

How the results depend on the processing

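Of 759 member values recomputed under 17 settings, 636 moved by less than their counting interval, 118 moved by more and 5 changed direction, and 45 changed side of the fold. Of 159 counts and Id per 100 E-protein ratios, 133 held and 26 moved. After thinning to 1000 UMIs, 18 of 21 shares of cells moved.

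Requiring more than 1000 genes and under 5% mitochondrial UMIs, which removes much of P1 (median 5.92%), put the members past the fold in Sst-silent cells at 3 (E16.5) and 2 (P1), the ratios at 3.79, 4.49 and 4.63 (E16.5, P1, P5) and the Id1 log2 ratio in Nos1 cells at E16.5 at 0.0072. With no quality filter the P1 ratio was 2.98. At least 3 Nos1 UMIs gave 2 members past the fold in Nos1 cells at P1, both lower, with Id2 at log2 -0.42 there and Id1 at log2 1.45 at E16.5. The mean of per-cell CPM gave 0 in Nos1 cells at P1. Thinning to 2000 UMIs gave 1 from E16.5 to P1, 0 in Nos1 cells at P1, 3 in Erbb4 over Reln cells at E16.5, and ratios of 3.96 (P1) and 6.35 (P5). Without the 5% of cells with the most UMIs there were 2 in Sst-silent cells at E16.5, and the P1 ratio was 3.63. Without other-type cells there were 0 in Nos1 cells at P1, with Id2 at log2 -0.42, and ratios of 3.29 (E16.5) and 3.08 (P1). A fold of 2 gave 0 from E16.5 to P1, 0 in Nos1 cells at P1, 1 at P5 and 2 in Sst-silent cells at E16.5. A minimum of 10 UMIs gave 2 in Nos1 cells at P1. Settings chosen after seeing the data were Nos1 cells with Lhx6, where Id2 at P1 was at log2 -0.63, and Lhx6 cells alone, where 4 members were past the fold from E16.5 to P1 and the ratios were 2.84 (E16.5) and 5.26 (P5). The cause was not tested.

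No paired analysis was possible because each stage has 1 library. Depth limits Id1 in every group and Id3 at P5.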
